A study of Mus musculus with 18 samples.

Results

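The mouse mitochondrial genome carries 37 genes, and all 37 were rows of the count table, chosen as the rows whose chromosome is MT, out of 47729 genes. They are 13 protein genes, 2 rRNA genes and 22 tRNA genes. Colon RNA of C57BL/6 mice was sequenced in 9 libraries, 3 in each of 3 groups, and the labels do not say whether each library came from a separate mouse. Control WT (libraries R1 to R3) carried the wild-type genotype and the treatment label Control. AOM-DSS WT (R4 to R6) were wild-type mice given 1 dose of azoxymethane (AOM, a carcinogen) at 10 mg/kg and 3 cycles of 2.5% dextran sulfate sodium (DSS, which injures the colon lining), a regimen that produces colitis-associated colon cancer. AOM-DSS Claudin-2TG (R7 to R9) received the same regimen and carried a Cldn2 transgene driven by the villin promoter, which is active in the intestinal epithelium, so other cell types of the sample are not its target. The AOM and DSS text stands in the protocol field of the Control WT libraries too, and these were grouped by their treatment label. A Control group with the transgene was not analysed here, so the transgene was compared only within AOM-DSS, and the ages of the mice are not given in the labels.

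The mitochondrial genome is a small circle present in many copies per cell. Both of its strands are transcribed as long precursors, from which tRNAs, rRNAs and mRNAs are cut. Its protein genes encode core subunits of the respiratory chain: the Nd genes for complex I, Cytb for complex III and the Co genes for complex IV, with the Atp genes encoding parts of the ATP synthase. The rRNAs and tRNAs serve the translation of these mRNAs inside the organelle, while nearly all other proteins of the organelle are encoded in the nucleus and imported. In the colon, surface colonocytes are known for high oxidative metabolism.

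The genes lie close together on GRCm38 and several share bases. Only 1 protein gene, mt-Nd6 (chromosome MT, 13552 to 14070), and 8 tRNA genes lie on the minus strand, and mt-Nd6 shares 14 bases with the end of mt-Nd5 (11742 to 13565, plus strand). The coding sequence of mt-Atp8 (7766 to 7969, plus strand) ends 43 bases inside mt-Atp6 (7927 to 8607). The last 60 bases of mt-Atp8 are shown because reads there belong to both genes, with the shared bases in capitals.
mt-Atp8, MT:7910-7969, plus strand: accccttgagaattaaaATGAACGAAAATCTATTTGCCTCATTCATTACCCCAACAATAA
The tRNA genes are short, and the sequences of mt-Tq (glutamine tRNA) and mt-Te (glutamate tRNA) are shown because these were the tRNA genes called in a comparison below. The capitals in mt-Tq mark 3 bases that it shares with mt-Ti on the opposite strand.
mt-Tq, MT:3772-3842, minus strand: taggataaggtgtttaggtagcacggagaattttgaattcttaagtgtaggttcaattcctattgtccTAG
mt-Te, MT:14071-14139, minus strand: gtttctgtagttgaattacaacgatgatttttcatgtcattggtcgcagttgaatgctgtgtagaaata

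A stretch of nuclear DNA repeats part of this genome almost letter for letter. On chromosome 1 of GRCm38, between 24611535 and 24616197 (4663 bases, minus strand), 7 annotated pseudogenes matched 7 mitochondrial protein genes at 99% identity or more. Gm10222 (matching mt-Nd4l), Gm28437 (mt-Co3), Gm10925 (mt-Atp6), Gm28661 (mt-Co2) and Gm28439 (the first 876 bases of mt-Nd4) had no differing base in the aligned part. Gm28438 differed from mt-Nd3 by 1 base, T3C, and Gm29216 from mt-Co1 by 1 base, A1066T, with positions counted from the first base of the mitochondrial gene and its base given first. The places of both differences are shown, with the differing base in capitals. They are the letters by which a read can be told to come from one place or the other, and elsewhere in the aligned parts the letters are the same.
mt-Nd3, MT:9459-9518, plus strand: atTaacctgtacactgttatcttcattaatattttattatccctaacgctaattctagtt
Gm28438, chr1:24613060-24613119, minus strand: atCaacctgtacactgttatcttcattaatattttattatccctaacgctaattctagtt
mt-Co1, MT:6390-6449, plus strand: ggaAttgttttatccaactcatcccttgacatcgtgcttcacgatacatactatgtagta
Gm29216, chr1:24616129-24616188, minus strand: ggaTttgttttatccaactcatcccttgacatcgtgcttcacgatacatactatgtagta

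The libraries held 14142711 to 22262546 counts. Cldn2 stood at 129 ± 9.34 CPM (CPM are read counts scaled to a common library total; SD, n = 3) in AOM-DSS WT, 226 ± 22.4 in AOM-DSS Claudin-2TG and 232 ± 35.6 in Control WT. It was higher in AOM-DSS Claudin-2TG than in AOM-DSS WT by 0.78 on the log2 scale (adjusted p = 0.0103, edgeR). Xist, transcribed in female cells, was at 214 CPM in R1 and at most 0.203 CPM in the other 8 libraries, so R1 stands apart by sex, and counts of calls that R1 changed are given without it beside them below. Markers of all cell types looked for were present, none of them at 3 counts or fewer in every library. The leukocyte markers summed to 52.3 to 126 CPM in Control WT, 199 to 300 in AOM-DSS WT and 33.5 to 71.4 in AOM-DSS Claudin-2TG. Plasma cell markers summed to 312 to 667, 1069 to 3534 and 96.8 to 680 CPM, and smooth muscle markers to 2065 to 4100, 1089 to 2976 and 991 to 1523 CPM, in the same order. Fibroblast markers summed to 292 to 422, 446 to 1119 and 181 to 260 CPM, endothelial markers to 29.3 to 37.3, 31.6 to 39.6 and 18.0 to 21.3 CPM, and enteric neuron and glia markers to 9.59 to 15.0, 2.48 to 7.87 and 3.18 to 4.34 CPM. Goblet cell markers (11246 to 21588 CPM over all libraries), adipocyte markers and RNAs without a poly(A) tail or kept in the nucleus overlapped between all groups. Colonocyte markers overlapped between all groups, at 20551 to 22494, 17258 to 24634 and 22292 to 28135 CPM. These differences in cell makeup lie alongside every comparison below, their part in it was not tested, and in bulk tissue fewer cells of a type and less RNA per cell cannot be told apart.

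Counts on the 37 genes took a larger part of the library in both AOM-DSS groups than in Control WT. The share was 3.11%, 3.50% and 2.86% in R1 to R3, 4.69%, 3.54% and 4.49% in R4 to R6, and 5.04%, 4.57% and 5.76% in R7 to R9. Every AOM-DSS library was above every Control WT library, though R5 exceeded R2 by little, and the AOM-DSS groups overlapped each other. The means were 3.16% ± 0.32 in Control WT, 4.24% ± 0.62 in AOM-DSS WT and 5.13% ± 0.60 in AOM-DSS Claudin-2TG (SD, n = 3). The 95% Wilson interval of a library's share was at most 0.0118 percentage points to either side, which covers counting error only.

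**Figure D1:**
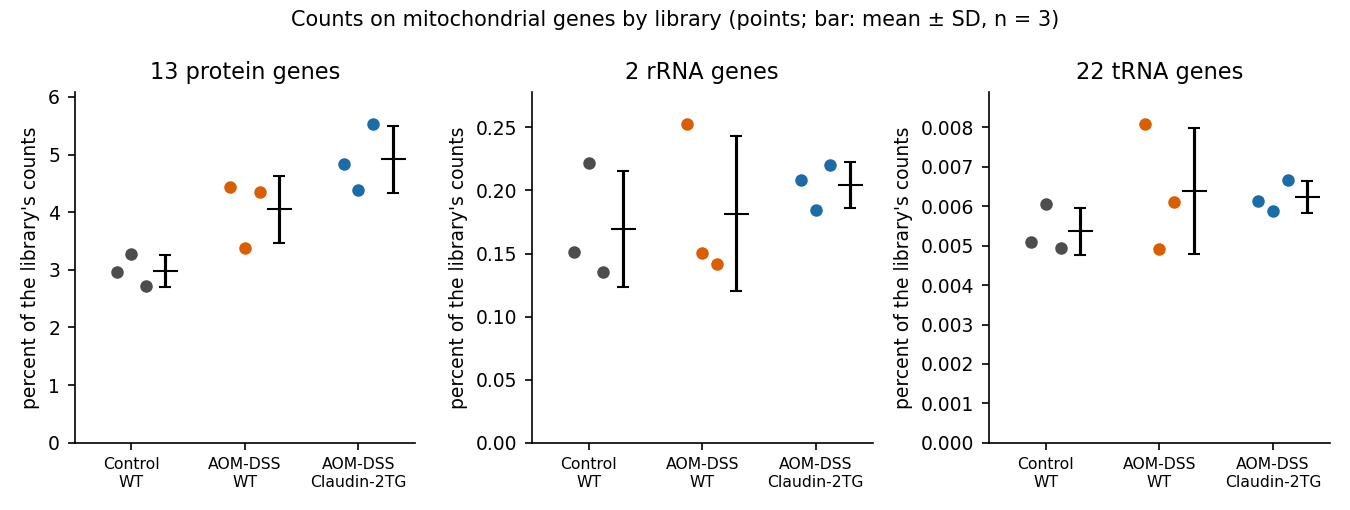
Percent of each library's counts on the 13 protein, 2 rRNA and 22 tRNA genes (y axes, each from 0) in the 3 groups; points are libraries and bars the mean ± SD, n = 3. For the protein genes every AOM-DSS library lies above the Control WT libraries, while the rRNA and tRNA shares of the 3 groups overlap.

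The protein genes made up nearly all of these counts, with means of 2.98% ± 0.28, 4.05% ± 0.58 and 4.91% ± 0.58 of the library in Control WT, AOM-DSS WT and AOM-DSS Claudin-2TG. AOM-DSS Claudin-2TG exceeded Control WT by 1.93 percentage points (exact permutation p = 0.1, two-sided, the smallest that 3 against 3 allows, and 0.3 after adjustment over the 12 tests of shares). AOM-DSS WT exceeded Control WT by 1.07 points with the same exact p of 0.1. AOM-DSS Claudin-2TG exceeded AOM-DSS WT by 0.86 points, and those groups overlapped (exact permutation p = 0.2). Without R5 this difference was 0.53 points and without R9 0.56 points.

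The rRNA genes took 0.169% ± 0.046, 0.182% ± 0.062 and 0.204% ± 0.018 of the library in the same order, and the tRNA genes 0.00536% ± 0.00061, 0.00638% ± 0.0016 and 0.00623% ± 0.00041. For both classes the 3 groups overlapped in all comparisons, with exact permutation p from 0.2 to 0.9. The rRNA share is small for RNAs that are abundant in mitochondria, and how the libraries treated rRNA and RNA without a poly(A) tail is not given in the sources used here.

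In AOM-DSS Claudin-2TG against Control WT, 12 of the 23 mitochondrial genes that passed the filter on low counts were called, and all 12 were higher in AOM-DSS Claudin-2TG. Without R1, 11 were called. A gene is called here at an adjusted p under 0.05 in edgeR's quasi-likelihood test with Benjamini-Hochberg adjustment over all genes tested. Over all 15013 genes tested, 10.0% were called, with 3.92% called higher and 6.07% called lower. Without R1 the shares called higher and lower were 2.60% and 3.65%. Of the 12, 11 were protein genes, and the same 11 were higher without overlap of the groups, beside 14.9% of all genes tested. The protein genes had a median log2 fold change of 0.81, and all genes tested a median of 0.0023.

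All 3 complex IV genes rose. mt-Co1, the catalytic subunit, was at 12072, 13604 and 10349 CPM in Control WT and 20990, 20638 and 29501 CPM in AOM-DSS Claudin-2TG. Every AOM-DSS Claudin-2TG library was above every Control WT library, a log2 fold change of 0.99 ± 0.16 (SE, adjusted p = 0.00634). mt-Co2, which holds the copper site that takes electrons from cytochrome c, rose from 321 to 636 CPM on average (log2 fold change 0.99 ± 0.12, adjusted p = 0.00148). mt-Co3, the third core subunit, rose by 0.61 ± 0.09 (adjusted p = 0.00493).

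Of the complex I genes, 5 of 7 rose. mt-Nd1 went from 3998, 4302 and 3847 CPM to 6483, 6086 and 6972 CPM, with no overlap (log2 fold change 0.69 ± 0.10, adjusted p = 0.00337). mt-Nd3 changed by 1.04 ± 0.13, mt-Nd4 by 0.89 ± 0.15, mt-Nd4l by 0.81 ± 0.14 and mt-Nd2 by 0.54 ± 0.10, with adjusted p between 0.00222 and 0.00885 (edgeR). The other two did not pass, namely mt-Nd5 at 0.31 ± 0.13 (adjusted p = 0.173) and mt-Nd6 at 0.42 ± 0.15 (adjusted p = 0.118, and 0.00462 without the filter). mt-Nd5 was at 2258, 2868 and 2521 CPM in Control WT and 3420, 2557 and 3466 CPM in AOM-DSS Claudin-2TG, and R8 lay within the Control WT range.

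mt-Cytb, the only complex III subunit encoded here, rose from 5441, 6353 and 4930 CPM to 10389, 8940 and 11941 CPM (log2 fold change 0.91 ± 0.13, adjusted p = 0.00391). Of the ATP synthase genes, mt-Atp6, part of the proton channel, was at 208, 206 and 186 CPM in Control WT and 358, 426 and 381 CPM in AOM-DSS Claudin-2TG (log2 fold change 0.96 ± 0.10, adjusted p = 0.000764, the lowest of the 23 genes tested). mt-Atp8 rose by 0.57 ± 0.10 (adjusted p = 0.00814). These 11 protein genes stayed called in all 6 fits that left out 1 library, R1 included. In a fit on all 9 libraries 8 stayed called, and mt-Nd2, mt-Atp8 and mt-Co3 did not.

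**Figure D2:**
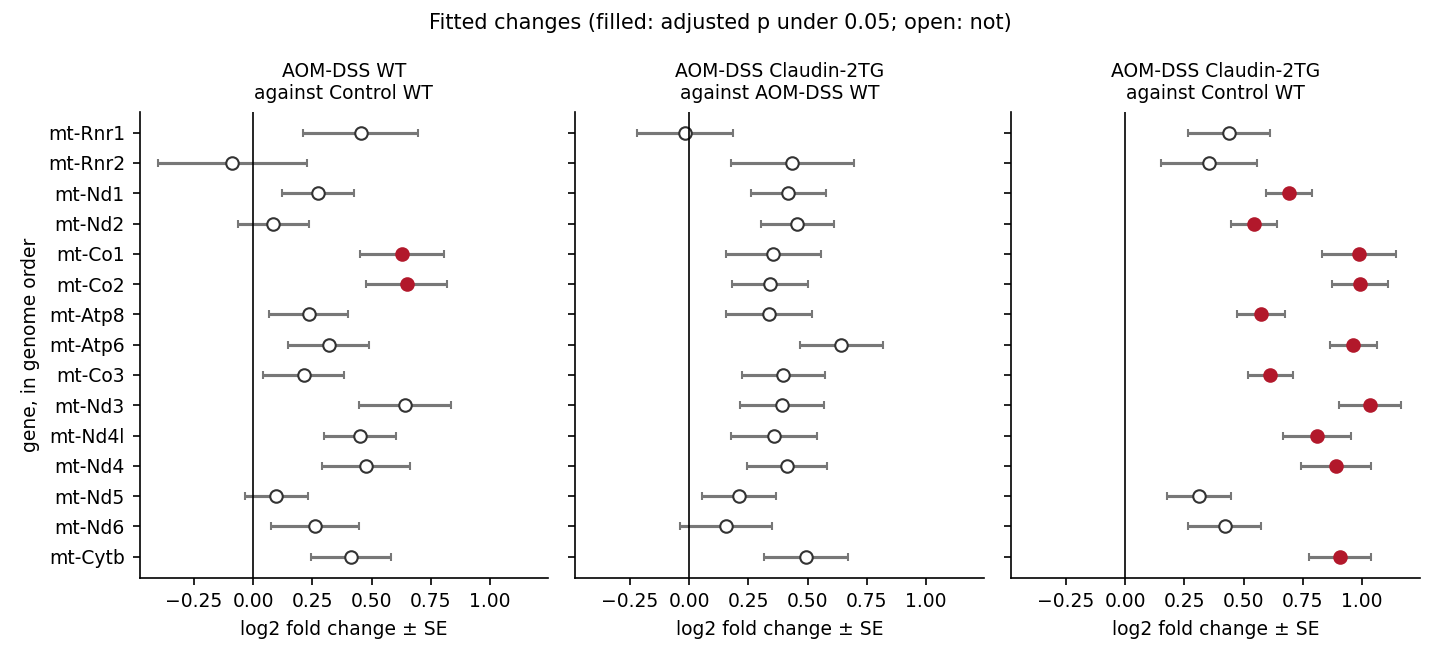
Log2 fold change ± SE (x axes) of the 13 protein and 2 rRNA genes in genome order (y axis) for the 3 comparisons; filled points have an adjusted p under 0.05. In AOM-DSS Claudin-2TG against Control WT 11 protein genes are filled, in AOM-DSS WT against Control WT mt-Co1 and mt-Co2, and in AOM-DSS Claudin-2TG against AOM-DSS WT none of these 15.

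Treatment alone gave fewer calls, from libraries that varied more within groups. The spread between libraries, as edgeR's common biological coefficient of variation, was 0.218 in AOM-DSS WT against Control WT. In AOM-DSS Claudin-2TG against Control WT it was 0.149, so the numbers of calls do not by themselves compare the sizes of the changes. In AOM-DSS WT against Control WT, 3 of the 23 genes tested were called, of which 2 were higher. The 1 called lower was the tRNA gene mt-Tq, which passed the filter through its high group only. Of all 15437 genes tested 15.0% were called, with 8.04% called higher and 6.92% called lower in AOM-DSS WT. Without R1 the shares called higher and lower were 2.44% and 1.53%. mt-Co1 rose by 0.63 ± 0.18 on the log2 scale (adjusted p = 0.0494), with AOM-DSS WT libraries at 21177, 15404 and 18105 CPM. mt-Co2 rose by 0.65 ± 0.17 (adjusted p = 0.0424), from 347, 346 and 271 CPM to 538, 395 and 549 CPM. Both groups were apart for these genes. All 13 protein genes had positive log2 fold changes, from 0.085 (mt-Nd2) to 0.65, with a median of 0.32 against 0.021 over all genes tested. Their groups were apart in 4 of 13, beside 17.7% of all genes that were higher without overlap. No mitochondrial gene stayed called without R1, R2, R3 or R6, 2 tRNA genes were called without R4, and 5 protein genes without R5, the AOM-DSS WT library with the lowest share. The calls of mt-Co1 and mt-Co2 were thus each lost in 5 of the 6 fits without 1 library, with adjusted p up to 0.192 and 0.155 (edgeR). With lane 2 only both calls were lost (adjusted p = 0.0582 and 0.0536, edgeR), and that of mt-Co1 also with upper quartile scaling (adjusted p = 0.0523) and without the filter (adjusted p = 0.0508). mt-Nd3 was called higher by DESeq2 and in the fit on all 9 libraries (adjusted p = 0.0299 and 0.0265).

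The transgene comparison, AOM-DSS Claudin-2TG against AOM-DSS WT, called 1 of the 23 genes tested, the tRNA gene mt-Tq, which passed the filter through its high group only, where 9.54% of all 14888 genes tested were called with 2.19% called higher and 7.35% lower. Of the 13 protein genes edgeR called 0, with 6 at an unadjusted p under 0.05, and DESeq2 called 3 (mt-Nd2, mt-Atp6 and mt-Cytb), while edgeR on all 9 libraries called mt-Nd2 and mt-Atp6. Their log2 fold changes were all positive, with a median of 0.39 (0.23 without R5) against 0.0085 over all genes, and 8 of 13 were higher without overlap, beside 14.2% of all genes. mt-Atp6 came nearest, at 282, 185 and 267 CPM in AOM-DSS WT and 358, 426 and 381 CPM in AOM-DSS Claudin-2TG (log2 fold change 0.64 ± 0.18, adjusted p = 0.0546, and 0.0155 without the filter). Without R4 the count of mitochondrial calls was 5, and without R5, R7, R8 or R9 it was 0. The 3 comparisons share libraries in pairs, so a low or high group enters 2 of them. Whether the effects of treatment and of transgene differ was not tested.

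Scaling by library size alone lowered the median of all genes to -0.11 in AOM-DSS Claudin-2TG against Control WT, and the protein genes then had a median of 0.69. No sign of a protein gene's change turned under any of the scalings tried.

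The makeup of the protein-gene counts also differed between groups. mt-Co1 held 41.0% ± 1.19 of the counts of the 13 genes in Control WT, 46.5% ± 2.56 in AOM-DSS WT and 45.4% ± 3.10 in AOM-DSS Claudin-2TG. Its share was above every Control WT library in all 6 AOM-DSS libraries (exact permutation p = 0.1 in each comparison with Control WT). AOM-DSS Claudin-2TG exceeded Control WT by 4.37 percentage points, and by 2.77 without R9. mt-Nd2 held 5.57% ± 0.31, 4.31% ± 0.18 and 4.56% ± 0.33, and mt-Nd5 8.74% ± 0.91, 6.91% ± 0.80 and 6.07% ± 0.72, and for both every AOM-DSS library was below every Control WT library. mt-Cytb held 18.9%, 19.4% and 18.9% in R1 to R3, 18.3%, 18.2% and 19.3% in R4 to R6 and 21.0%, 19.6% and 19.6% in R7 to R9. Its share was higher without overlap in AOM-DSS Claudin-2TG than in AOM-DSS WT (by 1.49 percentage points) and than in Control WT (by 1.02 points), with an exact permutation p of 0.1 in each. Without R7 the difference from Control WT was 0.57 points, and over the fits without 1 library its exact p was 0.1 to 0.3. It was the only 1 of the 15 measures of makeup in which the AOM-DSS groups were apart. With the nuclear copies described below added, the exact p against Control WT was 0.2. The 7 complex I genes together held 36.8% ± 1.28, 31.9% ± 2.25 and 31.4% ± 2.34 and the 3 complex IV genes 43.1% ± 1.24, 48.6% ± 2.57 and 47.4% ± 3.04. After adjustment over the 45 tests of this kind, the lowest value was 0.375, from exact permutation tests that cannot go below 0.1 each.

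**Figure D3:**
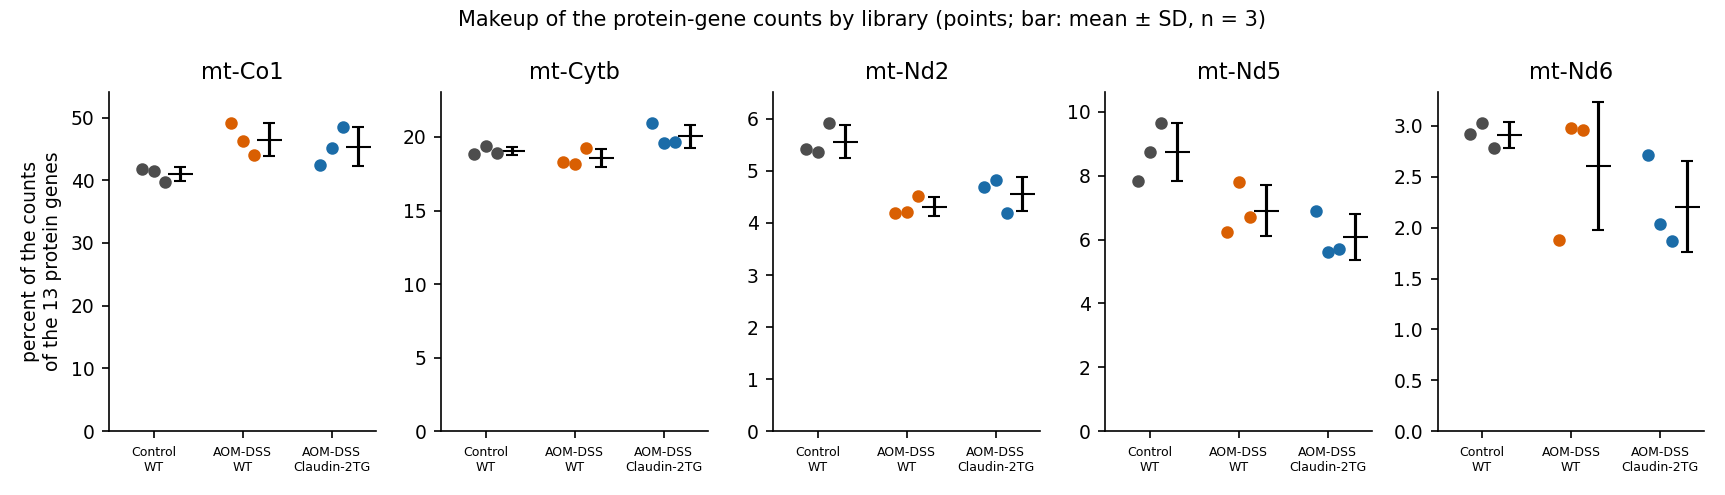
Percent of the counts of the 13 protein genes held by each of 5 of them (y axes, each from 0), chosen after their values were seen; points are libraries and bars the mean ± SD, n = 3. mt-Co1 lies higher, and mt-Nd2 and mt-Nd5 lower, in all 6 AOM-DSS libraries than in Control WT, and mt-Cytb lies highest in the AOM-DSS Claudin-2TG libraries.

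mt-Nd6, the minus-strand protein gene, was compared with the plus-strand protein genes. The log2 ratio was -5.06 ± 0.065 in Control WT, -5.26 ± 0.39 in AOM-DSS WT and -5.49 ± 0.29 in AOM-DSS Claudin-2TG. Control WT and AOM-DSS Claudin-2TG were apart (exact permutation p = 0.1), while AOM-DSS WT overlapped both, with R4 at -5.70 and R5 and R6 at -5.03 and -5.04. The log2 ratio of rRNA to protein-gene counts was -4.17 ± 0.25, -4.52 ± 0.40 and -4.59 ± 0.061, and it was again lower without overlap in AOM-DSS Claudin-2TG than in Control WT (exact permutation p = 0.1). That difference was -0.42 on the log2 scale, and -0.28 without R2.

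The rRNA genes missed the threshold in all 3 comparisons as fitted on 6 libraries with the filter. In edgeR 0 of 2 were called in each, DESeq2 called 0 as well, and 1 unadjusted p was under 0.05, that of mt-Rnr1 in AOM-DSS Claudin-2TG against Control WT. mt-Rnr1, the small-subunit rRNA, was at 470, 678 and 423 CPM in Control WT, 930, 584 and 601 in AOM-DSS WT and 693, 628 and 802 in AOM-DSS Claudin-2TG. mt-Rnr2, the large-subunit rRNA, was at 1003, 1549 and 875, then 1529, 897 and 742, then 1449, 1291 and 1616 CPM. R2 and R4 were the high libraries of their groups for both. Without the filter both were called higher in AOM-DSS Claudin-2TG than in Control WT (adjusted p = 0.00243 for mt-Rnr1 and 0.0304 for mt-Rnr2, edgeR). Without R2, mt-Rnr1 (0.67, adjusted p = 0.0147) and mt-Rnr2 (0.63, adjusted p = 0.0194) were called higher in AOM-DSS Claudin-2TG than in Control WT by edgeR, and without R4 mt-Rnr2 was called higher in AOM-DSS Claudin-2TG than in AOM-DSS WT (0.81, adjusted p = 0.00514). Over the fits without 1 library, the adjusted p of mt-Rnr1 and mt-Rnr2 reached 0.354 and 0.614 against Control WT, and that of mt-Rnr2 reached 0.697 against AOM-DSS WT (edgeR).

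tRNA genes held 9924 counts in all 9 libraries together, and 64.6% of them fell on mt-Tp (proline tRNA) and 13.9% on mt-Tl1 (a leucine tRNA). In each library the 8 minus-strand tRNA genes held 78.0% to 90.1% of the tRNA counts, and mt-Tl1, between the rRNA genes and mt-Nd1, was the plus-strand gene with most of the rest. At most 3 counts in every library were found for 11 of the 22, and 2 of these, mt-Tw and mt-Th, had no count, which allows up to 0.135 to 0.212 CPM in a library. Of the 22 genes, 8 passed the filter and were tested, 6 on the minus and 2 on the plus strand. The 14 that were not tested had 0 to 29 counts each over all libraries.

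**Figure D4:**
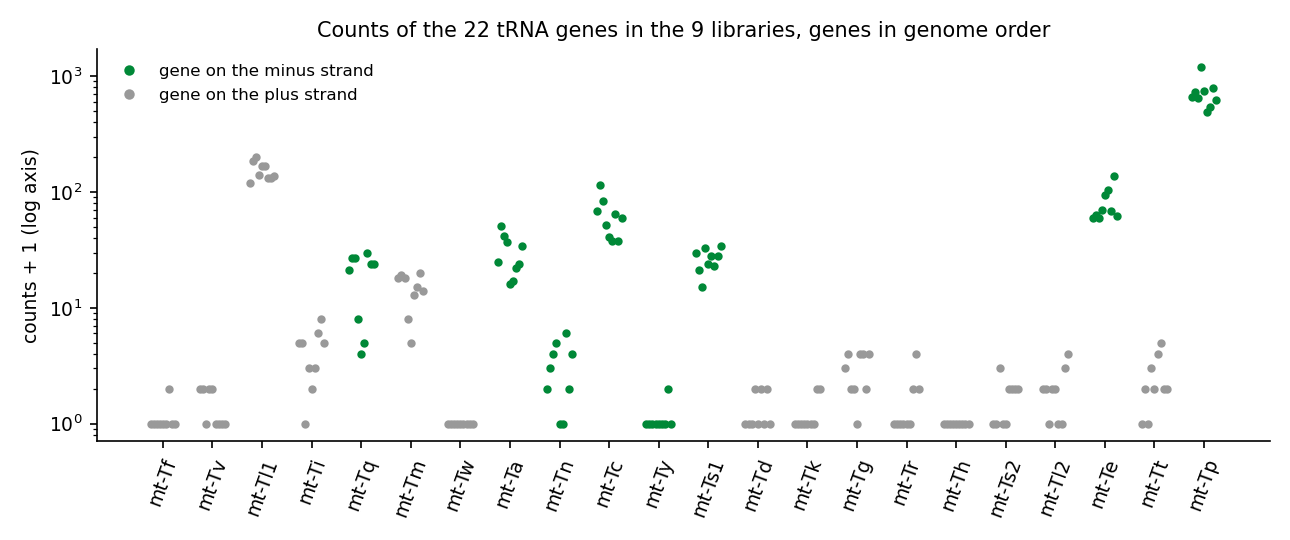
Counts plus 1 (log y axis) of the 22 tRNA genes in genome order (x axis), 9 libraries each; colour gives the strand of the gene. The minus-strand genes mt-Tp, mt-Te, mt-Tc, mt-Ta and mt-Ts1 and the plus-strand gene mt-Tl1 hold most counts, and 11 genes never exceed 3.

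mt-Tq had 20, 26 and 26 counts in Control WT, 7, 3 and 4 in AOM-DSS WT and 29, 23 and 23 in AOM-DSS Claudin-2TG. The AOM-DSS WT libraries were below all others. It fell by 2.15 on the log2 scale in AOM-DSS WT against Control WT (SE 0.43, adjusted p = 0.0196, edgeR) and was higher by 2.64 in AOM-DSS Claudin-2TG against AOM-DSS WT (SE 0.47, adjusted p = 0.0133, edgeR), both resting on the same 3 low libraries. The AOM-DSS WT counts lie under the minimum count of 10, so mt-Tq passed the filter in both comparisons through the group where it is high. The first call was lost without any single library except R4, with adjusted p from 0.0516 to 0.0877 in edgeR, and the second without R5, R7, R8 or R9. mt-Te had 58, 62 and 59, then 69, 94 and 103, then 68, 136 and 61 counts. It was called higher in AOM-DSS Claudin-2TG than in Control WT (log2 fold change 0.92 ± 0.24, adjusted p = 0.0334, edgeR), a call lost without R1, R2, R3 or R8, in each lane alone, with library size only and in a fit on all 9 libraries. mt-Tp, which was at 32.5, 36.3 and 28.1 CPM in Control WT and 37.5, 40.1 and 45.6 in AOM-DSS Claudin-2TG, did not pass (0.35 ± 0.12, adjusted p = 0.102), and mt-Tl1 was at 0.12 ± 0.22 (adjusted p = 0.775).

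Per length of gene, the protein genes covered a wide range of levels. In Control WT, CPM per kb were 7923 for mt-Co1, 4968 for mt-Cytb and 4318 for mt-Nd1, but 479 for mt-Co2, 365 for mt-Co3, 300 for mt-Atp6, 64.8 for mt-Nd4l and 33.7 for mt-Nd3. These 5 low genes are those matched over nearly their whole length by the pseudogenes on chromosome 1. In Control WT, 86.1% of the counts of mt-Nd3 and its match together fell on the pseudogene, 82.8% for mt-Atp6, 74.3% for mt-Co3, 58.3% for mt-Co2 and 57.1% for mt-Nd4l. For mt-Nd4 and mt-Co1, which the pseudogenes on chromosome 1 match in part, these values were 8.88% and 3.49%. They were close in the other groups, with mt-Co3 at 74.1% in AOM-DSS WT and 74.6% in AOM-DSS Claudin-2TG and mt-Atp6 at 83.1% and 81.4%. With the pseudogene counts added, Control WT levels per kb were 1149 for mt-Co2, 1737 for mt-Atp6, 1422 for mt-Co3, 242 for mt-Nd3 and 151 for mt-Nd4l. How the authors' counting placed reads that match both a mitochondrial gene and a nuclear copy is not given in the sources used here. The levels of these 5 genes relative to the other protein genes are thus uncertain. Only annotated transcripts were matched, so unannotated parts of the stretch were not compared. mt-Atp8, at 542 CPM per kb in Control WT, lies between mt-Co2 and mt-Atp6, whose copies are neighbours on chromosome 1. Whether it has a copy there was not tested.

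**Figure D5:**
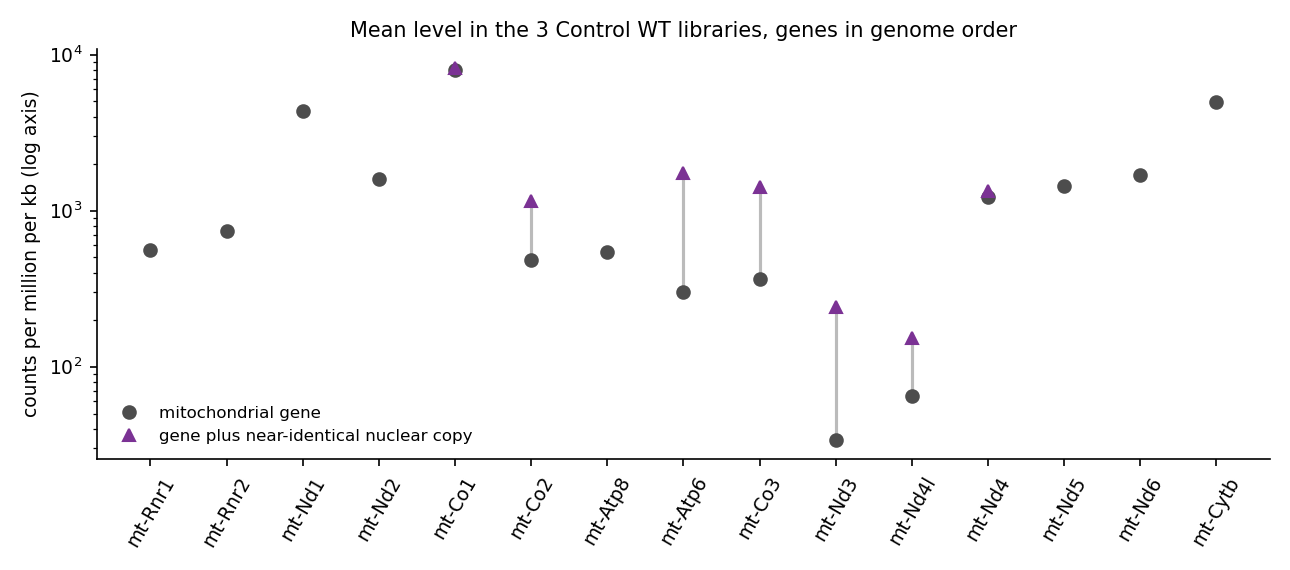
Mean CPM per kb (log y axis) of the 15 protein and rRNA genes in genome order (x axis) in the 3 Control WT libraries, for the gene alone (circles) and with its near-identical nuclear copy added (triangles, joined by a line). mt-Nd3 moves from 33.7 to 242 and mt-Atp6 from 300 to 1737, while mt-Co1 and mt-Nd4 hardly move.

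All 7 pseudogenes of chromosome 1 were called higher in AOM-DSS Claudin-2TG against Control WT, beside 3.92% of all genes called higher. Their log2 fold changes ran from 0.64 to 1.03, and all 7 stayed called in each of the 6 fits without 1 library. Gm28661 and Gm29216 (2 of 7) were called higher in AOM-DSS WT against Control WT, beside 8.04% of all genes, with 0 without R1, R2, R3 or R6 and 6 without R5. The transgene comparison called 0 of 7 in edgeR, with 3 at an unadjusted p under 0.05 and 0 called by DESeq2, and 2 were called without R4. With the copies' counts added to the genes, an alternative chosen after seeing the data, 12, 3 and 1 mitochondrial genes were called in AOM-DSS Claudin-2TG against Control WT, AOM-DSS WT against Control WT and AOM-DSS Claudin-2TG against AOM-DSS WT, the same counts as without. mt-Atp6 was then at 0.86 in the first of these (adjusted p = 0.00092, edgeR) and mt-Nd3 at 0.86 (adjusted p = 0.000766). In the last of these mt-Atp6 went from 0.64 to 0.51 (adjusted p = 0.117, edgeR), and mt-Nd2, at 0.46, then had a lower adjusted p of 0.104.

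The nuclear genes that transcribe, process and translate the mitochondrial genome were counted by list. The shares of all genes called in AOM-DSS WT against Control WT were 8.04% higher and 6.92% lower. Without R1 they were 2.44% and 1.53%, and over the fits without 1 library they ran from 0.470% and 0.376% (without R2) to 14.1% and 11.6% (without R4). For AOM-DSS Claudin-2TG against Control WT they were 3.92% higher and 6.07% lower, without R1 2.60% and 3.65%, and without any 1 library 1.17% to 3.79% higher and 2.27% to 5.20% lower. For AOM-DSS Claudin-2TG against AOM-DSS WT they were 2.19% higher and 7.35% lower, and from 0.0659% and 0.316% (without R8) to 6.08% and 13.1% (without R4). The median log2 fold change of 19 genes of mitochondrial DNA transcription and replication was -0.15 in AOM-DSS WT against Control WT. With 1 library left out it ran from -0.30 (without R4) to -0.044 (without R6). Of the 19, 3 (15.8%) fell in this comparison and none rose. Without R1 or R2 the count was 0, without R3 or R5 it was 1, and without R4 it was 4. They were Mgme1, a DNA exonuclease (-0.90 ± 0.15, adjusted p = 0.0142), Tfb2m, an initiation factor (-0.65 ± 0.15, adjusted p = 0.0306), and Twnk, the replicative helicase (-0.54 ± 0.12, adjusted p = 0.0258). In the other two comparisons edgeR called 0 of the 19, with 3 (AOM-DSS Claudin-2TG against AOM-DSS WT) and 1 (against Control WT) at an unadjusted p under 0.05 and 1 called by DESeq2 in each. Tfam, which packages the genome and starts its transcription, was at 53.9 ± 4.17, 44.2 ± 2.16 and 53.7 ± 2.37 CPM in Control WT, AOM-DSS WT and AOM-DSS Claudin-2TG and passed in no comparison (adjusted p = 0.134 in AOM-DSS WT against Control WT). Polrmt, the RNA polymerase, was at 31.0 ± 5.51 CPM in AOM-DSS WT and 33.2 ± 4.23 in AOM-DSS Claudin-2TG (log2 fold change 0.078 ± 0.17, adjusted p = 0.858).

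Of 31 genes of mitochondrial RNA processing and stability, 2 (6.45%) rose in AOM-DSS Claudin-2TG against Control WT, with 0 without R1, R3 or R9 and 1 without R2 or R8. These were Fastkd5, needed for the ends of some mRNAs (0.65 ± 0.18, adjusted p = 0.0461), and Trmt10c, a subunit of the RNase that cuts tRNA 5′ ends (0.50 ± 0.12, adjusted p = 0.0217). In the other two comparisons edgeR called 0 of 31, with 6 (AOM-DSS WT against Control WT) and 7 (AOM-DSS Claudin-2TG against AOM-DSS WT) at an unadjusted p under 0.05 and 0 and 1 called by DESeq2. Lrpprc, which stabilises the mitochondrial mRNAs, was at -0.33 ± 0.11 in AOM-DSS WT against Control WT (adjusted p = 0.0858) and -0.054 ± 0.10 in AOM-DSS Claudin-2TG against Control WT (adjusted p = 0.770).

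In AOM-DSS WT against Control WT, 2 of 13 translation factors fell, Mtif2 by 0.42 and Gfm2 by 0.39 on the log2 scale (adjusted p = 0.0350 and 0.0392, edgeR), and 5 of 17 (29.4%) aminoacyl-tRNA synthetases, which charge the tRNAs. Without R1, R2, R3, R5 or R6 the count of translation factors was 0, and without R4 it was 4, beside 0.376% to 3.65% and 11.6% of all genes called lower. That of synthetases was 0 without R2 or R3, 1 without R1 or R5 and 2 without R6. Lars2, the leucine enzyme, was at 827, 609 and 770 CPM in Control WT, 143, 129 and 345 in AOM-DSS WT and 431, 427 and 366 in AOM-DSS Claudin-2TG. It fell by 1.81 in AOM-DSS WT (adjusted p = 0.0277) and by 0.85 in AOM-DSS Claudin-2TG (adjusted p = 0.00448), each against Control WT, and was the only synthetase called in the latter. Pars2, the proline enzyme, fell by 0.72 in AOM-DSS WT against Control WT (adjusted p = 0.0305, edgeR). All 13 translation factors and all 17 synthetases had positive log2 fold changes in AOM-DSS Claudin-2TG against AOM-DSS WT (medians 0.24 and 0.24), where edgeR called 0 of either list, 2 and 3 had an unadjusted p under 0.05, and DESeq2 called 0 and 1.

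Of 77 mitochondrial ribosomal protein genes tested, 7 (9.09%) rose in AOM-DSS Claudin-2TG against Control WT and none fell. The count was 4 without R1, 1 without R2 or R9 and 0 without R3 or R8. Mrpl20 changed by 0.58 ± 0.14, Mrpl33 by 0.55 ± 0.12 and Mrpl12 by 0.43 ± 0.10 (adjusted p from 0.0201 to 0.0310, edgeR). In AOM-DSS WT against Control WT, 1 (1.30%) rose (Mrpl33, 0.66 ± 0.15, adjusted p = 0.0305, edgeR), a call lost without R1, R2, R3 or R6. Without R4 or R5, 2 were called higher, and without R4 2 were called lower. DESeq2 called 6 of the 77 in this comparison, counting both directions, and 12 had an unadjusted p under 0.05 in edgeR.

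Of the nuclear genes for respiratory chain subunits (taken by their gene families, Ndufaf assembly factors included), 7 of 85 tested (8.24%) rose in AOM-DSS Claudin-2TG against Control WT and none fell, among them Cox6c (0.50 ± 0.13), Ndufa6 (0.46 ± 0.10) and Uqcrq (0.42 ± 0.11), with adjusted p from 0.0189 to 0.0369 (edgeR). The count was 3 without R1, 1 without R2, 0 without R3, R8 or R9 and 13 without R7. In AOM-DSS WT against Control WT 4 of 86 (4.65%) were called lower, beside 6.92% of all genes, and 1 (1.16%) higher, beside 8.04%. Those called lower included the complex II subunit Sdha (-0.46 ± 0.11, adjusted p = 0.0350) and the complex III subunit Uqcrc2 (-0.43 ± 0.11, adjusted p = 0.0370), and the 1 called higher was the assembly factor Ndufaf4 (0.43 ± 0.11, adjusted p = 0.0350). Without R1, R2, R3 or R6 0 were called in either direction, and without R4 15 were called lower, beside 0.376% to 2.95% of all genes called lower in the first 4 of these fits and 11.6% in the last. In AOM-DSS Claudin-2TG against AOM-DSS WT 82 of 85 had positive log2 fold changes, with a median of 0.30 (0.17 without R5) against 0.0085 over all genes, but edgeR called 0, 30 had an unadjusted p under 0.05 and DESeq2 called 9, and without R4 edgeR called 21, beside 6.08% of all genes called higher. The median of these nuclear subunits was -0.11 in AOM-DSS WT against Control WT, where that of the mitochondrial protein genes was 0.32. With 1 library left out it ranged from -0.17 (without R4) to -0.017 (without R5), and without R5 that of the mitochondrial protein genes was 0.49. The median of the nuclear subunits was 0.18 in AOM-DSS Claudin-2TG against Control WT, where that of the mitochondrial protein genes was 0.81.

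Among 10 regulators of mitochondrial biogenesis tested, 3 fell and 1 rose (Pprc1, 0.46 ± 0.12, adjusted p = 0.0376, edgeR) in AOM-DSS WT against Control WT. Esrrg and Ppargc1b, a nuclear receptor and a coactivator of oxidative genes, fell by 1.40 and 1.34 (adjusted p = 0.0209 and 0.0138, edgeR) and were higher in AOM-DSS Claudin-2TG than in AOM-DSS WT by 1.24 and 0.98 (adjusted p = 0.0358 and 0.0365, edgeR). Ppargc1a, the related coactivator, fell by 0.87 in AOM-DSS WT against Control WT (adjusted p = 0.0208) and did not pass in AOM-DSS Claudin-2TG against Control WT (-0.46 ± 0.29, adjusted p = 0.369). In that comparison 2 of the 10 rose, Pprc1 (0.44 ± 0.11, adjusted p = 0.0275) and the nuclear receptor Esrra (0.41 ± 0.10, adjusted p = 0.0322). Of the 10, 0 were called in AOM-DSS WT against Control WT without R1 or R2, 1 without R5 and 2 without R3 or R6. The 2 of 10 (20%) called higher in AOM-DSS Claudin-2TG against AOM-DSS WT fell to 1 without R5 and to 0 without R6, R7, R8 or R9, beside 0.0659% to 0.973% of all genes in these fits, and in AOM-DSS Claudin-2TG against Control WT to 1 without R1, R2 or R7 and to 0 without R3, R8 or R9.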

How the data were processed

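RNA-seq of colon RNA was analysed from 9 libraries, each sequenced in 2 lanes on a NovaSeq6000. The deposited table holds whole-number read counts per gene, without normalization, in 18 columns, all of which were used. The submitters' processing notes name HISAT2, featureCounts of Subread and GRCm38, whereas the study's methods name TopHat2, featureCounts and DESeq2. Versions, strand setting and the treatment of multi-mapping or overlapping reads are not given in the sources used here. These settings bear on genes that overlap or have a nuclear copy.

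Lanes of a library were summed. Between the 2 lanes of a library, chi-square over its degrees of freedom was 0.995 to 1.06, and the mitochondrial share differed most in R4, at 4.72% and 4.67%. Gene symbols and coordinates were taken from GENCODE M21 (GRCm38), whose coordinates were the same for all 37 mitochondrial genes. It gave symbols for 47310 of 47729 identifiers. Each comparison was fitted on its 6 libraries with edgeR 4.0.16 in R 4.3.3 (TMM normalization, filterByExpr with minimum count 10 and minimum total 15, robust quasi-likelihood test, Benjamini-Hochberg adjustment over all genes tested). A gene with an adjusted p under 0.05 is said to be called. The samples are labelled as separate libraries, and where they did not come from separate mice the p-values would measure technical spread only. CPM values use TMM factors over all 9 libraries, except values per kb beside nuclear copies, which use total counts. Shares and ratios were compared by exact permutation of the libraries (two-sided), which cannot give less than 0.1 with 3 in each group. Nuclear copies were found with blastn 2.17.0+ against annotated transcripts (at least 99% identity, 100 aligned bases and 95% of the copy).

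The alternatives were DESeq2 1.42.0, library size only, upper quartile, scaling on nuclear genes, no filter, all 9 libraries in one fit, single lanes, other denominators, leaving out each library and, chosen after seeing the data, adding the counts of near-identical nuclear copies and leaving out each library for the lists of nuclear genes and the copies. The scripts were tested on simulated data. Named were all protein and rRNA genes, the tRNA genes called in a comparison and the 3 with the largest counts, Tfam, Polrmt, Lrpprc and Ppargc1a, and for each list of nuclear genes and comparison up to 3 called genes with the largest change and a mean of at least 1 CPM. Of the genes so chosen, 1 is not reported here. The genes, lists and tests were chosen with earlier results of these data known.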

Additional observations from a re-analysis of the deposited data

Results flagged for a closer look

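Counts on the 7 pseudogenes of chromosome 1 that match mitochondrial genes are listed because they lie outside the mitochondrial rows and were above the level of the control libraries. They took 0.297% ± 0.017 (SD, n = 3) of the counts in Control WT, 0.404% ± 0.080 in AOM-DSS WT and 0.493% ± 0.0100 in AOM-DSS Claudin-2TG. The Control WT libraries lay between 0.277% and 0.307%, the AOM-DSS WT libraries between 0.312% and 0.453% and the AOM-DSS Claudin-2TG libraries between 0.481% and 0.501%, so the groups did not overlap. Whether these counts come from transcription of the nuclear copies or from mitochondrial RNA was not tested. Single libraries were not screened for outliers, since each group holds 3.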

How the results depend on the processing

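No paired analysis was possible because the replicate numbers run from 1 to 9 and no number is shared between groups. In AOM-DSS Claudin-2TG against Control WT the count of mitochondrial genes called was 12, between 8 (all 9 libraries in one fit) and 15 (no filter) under the other settings, and 11 to 13 when 1 library was left out. In AOM-DSS WT against Control WT it was 3, fell to 0 with lane 2 only, where 21 mitochondrial genes passed the filter, and ranged from 0 to 5 when 1 library was left out. In AOM-DSS Claudin-2TG against AOM-DSS WT it was 1, with 4 under DESeq2, 2 without the filter, 3 with all 9 libraries in one fit, 0 with lane 2 only, and 0 to 5 when 1 library was left out. The causes were not tested. Log2 fold changes of genes that were not called changed sign as follows. mt-Tl1 was at -0.0056 with lane 2 only (AOM-DSS WT against Control WT), 0.0095 without the filter (AOM-DSS Claudin-2TG against AOM-DSS WT), and -0.00019 with library size only and -0.038 with lane 2 only (AOM-DSS Claudin-2TG against Control WT), and leaving out 1 library gave -0.11 to 0.25, -0.13 to 0.24 and -0.050 to 0.27 in these comparisons. With 1 library left out, mt-Rnr2 ranged from -0.46 to 0.19 in AOM-DSS WT against Control WT, and mt-Rnr1 from -0.15 to 0.25, mt-Te from -0.083 to 0.48 and mt-Tp from -0.23 to 0.31 in AOM-DSS Claudin-2TG against AOM-DSS WT. Differences in shares changed sign in 1 of 72 values under other denominators, lanes or added copies and in 4 of 72 with 1 library left out, and balances in 2 of 168 and 27 of 270. Of the tRNA genes 14 of 22 had too few counts to be tested, and whether depth or library preparation set this was not tested. Calls in the lists of nuclear genes were also counted under DESeq2 and without each library, the latter an alternative chosen after seeing the data. They were not counted under the other settings. Lists with no call in a comparison had at most 3 calls there without 1 library, except the respiratory chain subunits without R4, with 21.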
